A study of Mus musculus with 6 samples.

Results

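Genes that mark myeloid cells were followed in microarray profiles of memory-phenotype CD4+ T cells from mice with experimental autoimmune encephalomyelitis (EAE), an induced inflammation of the central nervous system. The list held 41 genes in 4 classes, namely 9 of microglia and complement, 20 of monocytes and macrophages, 7 of neutrophils and 5 of dendritic cells. A gene was measured by a probe set, a group of short probes on the array whose platform annotation named that gene alone, and where several existed the one with the highest mean log2 intensity over the 6 arrays was taken. In this way 40 of the 41 genes were measured, out of 18193 genes in all, and Retnlg, a neutrophil gene, was not analysed here. Both groups came from female C57BL/6 mice, 8 to 10 weeks old, with EAE induced by the MOG35-55 peptide of myelin oligodendrocyte glycoprotein and in the acute clinical phase. One group was taken from the spinal cord (3 arrays) and the other from the draining inguinal lymph nodes (3 arrays). How the T cells were isolated, how many mice stand behind an array, and whether the arrays of a tissue are separate animals are not given in the sources used here, so the spread between arrays may be technical.

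Myeloid cells arise from bone marrow precursors under transcription factors such as PU.1 and the C/EBP family, and include monocytes, macrophages, neutrophils and most dendritic cells. Microglia are the resident macrophages of the brain and spinal cord and are kept alive by signals through the receptor encoded by Csf1r. In EAE, monocytes and neutrophils from the blood enter the spinal cord beside T cells and meet the microglia there, so that T cells prepared from that tissue come from a site rich in myeloid cells.

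T cell marker genes, 11 measured of 13 listed, were compared between the tissues, which cannot show how pure the samples were. The summed intensity of these genes was 51922 to 60285 in spinal cord against 52040 to 74341 in lymph node. Limma called 0 of the 11 in either direction (0 higher and 1 lower at an unadjusted p below 0.05, and 0 with the replicate number as a block). Over all genes 2.54% were called in either direction, so 0 of 11 is near that share. The median log2 change of the 11 was -0.09, with 3 positive. The 5 genes chosen as markers of the myeloid list, Csf1r, Lyz2, Chil3, Tmem119 and S100a8, were each highest in the second spinal cord array. The arrays are numbered 1 to 3 in each tissue as in their titles. The signal of 4 poly-A control probe sets, for transcripts spiked into the RNA, summed to 29053, 4419 and 1729 on spinal cord arrays 1, 2 and 3, against 18490, 11324 and 3485 on those of lymph node. The ratio of 5' to 3' actin signal ran from 0.0886 to 0.568 over the 6 arrays. For Gapdh this ratio was 0.0532, 0.0405 and 0.242 on spinal cord arrays 1, 2 and 3, and 0.0709, 0.0307 and 0.251 on those of lymph node. Both ratios were lowest on lymph node array 2. The part of RNA quality in the differences was not tested. Precision rests on 3 arrays in each tissue and on the spread between them.

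Myeloid genes as a group read higher in the spinal cord samples. Chil3 and Lyz1 were at one extreme, and several dendritic cell genes were barely different at the other. The Lyz1 probe set used is marked as able to bind other transcripts. A Lyz1 probe set not so marked had a log2 change of 0.21. Of the 40 measured genes 39 had a positive log2 change from lymph node to spinal cord, against 50.7% of all genes, and the 1 exception was Ctss. The median log2 change was 1.29 over the 40 genes and 0.00 over all genes. On spinal cord arrays 1, 2 and 3, 8, 23 and 20 of the 40 were at least 2-fold above their lymph node mean. Of all genes, 3.66%, 2.88% and 2.98% were. By class the median was 1.36 for microglia and complement, 1.43 for monocytes and macrophages, 1.31 for neutrophils and 0.18 for dendritic cells. In a bulk sample, more cells of a type and more RNA per cell cannot be told apart.

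With limma, fitted over all genes with tissue as the only term and Benjamini-Hochberg adjustment (called at an adjusted p below 0.05), 4 of the 40 rose, namely Chil3, Lyz1, Cd86 and Itgax, and 0 fell. Of all genes, 1.13% were called higher and 1.41% lower by that rule, 2.54% in either direction. At an unadjusted p below 0.05, 26 were higher and 0 lower, against 5.39% and 8.89% of all genes. The replicate number was also used as a block, a pairing taken from these data and not from the labels. With it, 15 were called higher and 0 lower, against 3.67% and 7.45% of all genes, and the 15 included the 4. In 30 genes every spinal cord array was above every lymph node array, against 8.81% of all genes. In 9 genes the tissues overlapped, and in 1, Ctss, every spinal cord array was lower (9.68% of all genes). Single arrays mattered: with spinal cord arrays 1, 2 and 3 left out in turn, 14, 1 and 2 genes were called higher, and with lymph node arrays 1, 2 and 3 left out, 2, 0 and 2. The same fits called 0.748%, 0.269% and 0.654% of all genes higher, and 0.671%, 0.275% and 0.599%, each below the 1.13% of all 6 arrays. The median log2 change of the 40 genes was 1.60 with spinal cord array 1 left out and 0.69 with array 2 left out.

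**Figure D1:**
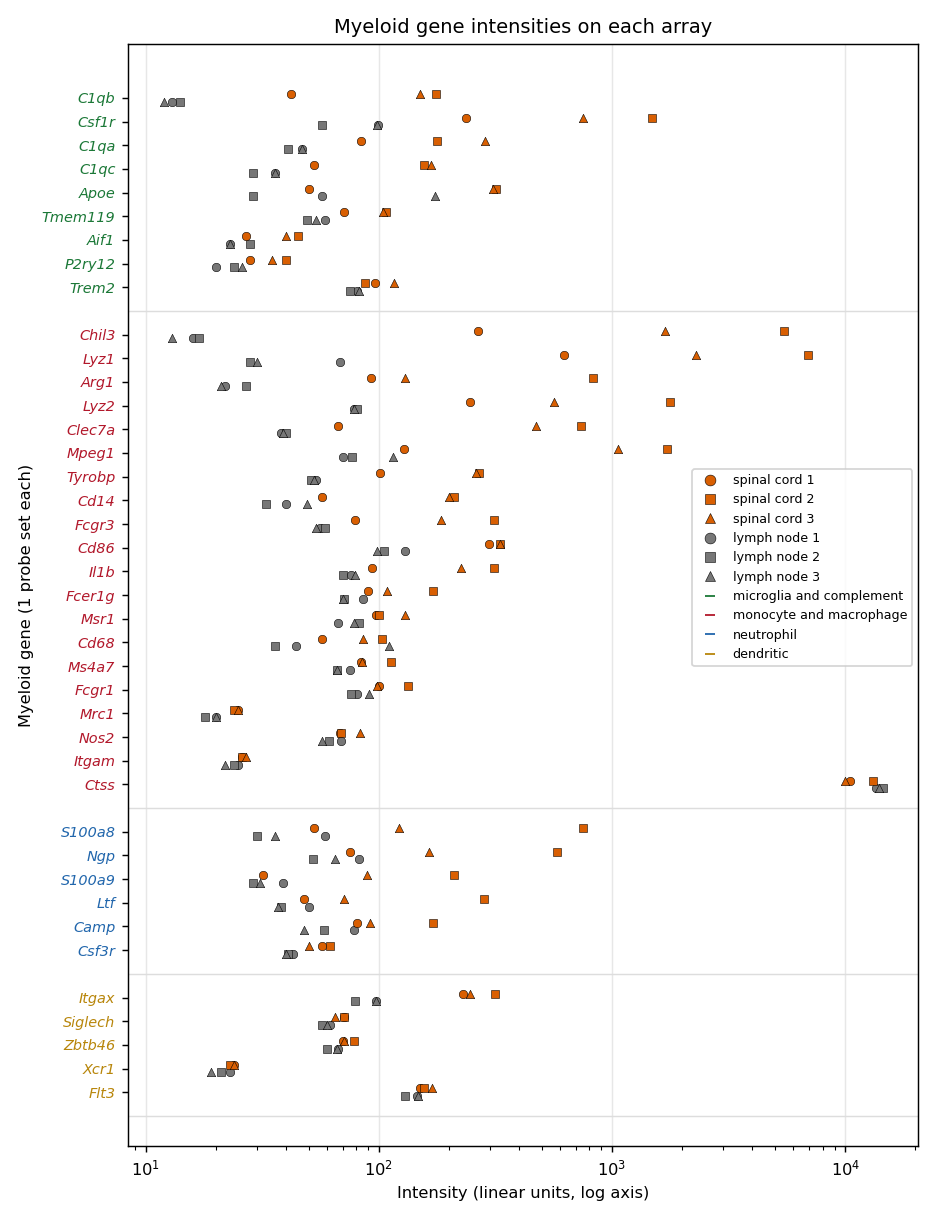
Intensity of each of the 40 measured myeloid genes on each array, on a log axis, with spinal cord arrays in orange and lymph node arrays in grey, symbols for array numbers 1 to 3, and gene names coloured by class and sorted within it by log2 change. The orange squares of spinal cord array 2 lie far to the right for Chil3 (5469) and Lyz1 (6944), while the lymph node points of most genes lie close together.

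**Figure D2:**
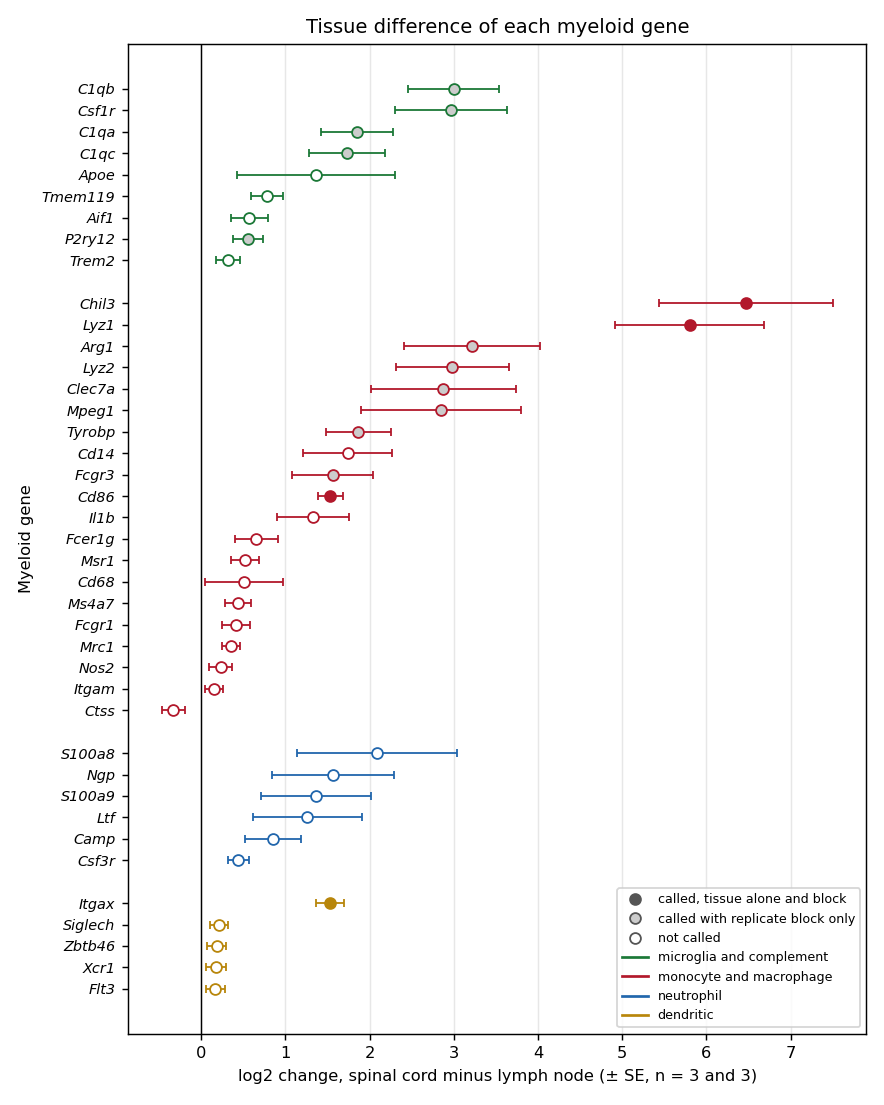
log2 change from lymph node to spinal cord with its standard error for each of the 40 genes (n = 3 arrays per tissue), coloured by class. Filled points are the 4 genes called with tissue alone and with the block, grey points the 11 called with the block only, and open points the genes not called; 39 of the 40 points lie to the right of 0.

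Chil3 and Lyz1 had the largest changes of the list. Chil3, which encodes the chitinase-like protein Ym1 of macrophages and neutrophils, read 267, 5469 and 1684 in spinal cord arrays 1, 2 and 3 against 16, 17 and 13 in lymph node. The groups did not overlap, and the spinal cord arrays themselves spanned 20.5-fold between the lowest and the highest. The fitted log2 change was 6.47 ± 1.03 SE (adjusted p = 0.0375 by limma; 0.00791 with the block). Because the lymph node mean lay below an intensity of 25 (the 20th percentile over the arrays), the fold is given against that level, at least 54.0-fold.

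Lyz1 and Lyz2 are neighbouring lysozyme genes on chromosome 10, and lysozyme degrades bacterial cell walls. Lyz1 read 622, 6944 and 2281 in spinal cord against 68, 28 and 30 in lymph node. On the log2 scale the change was 5.80 ± 0.88 SE, 55.7-fold (adjusted p = 0.0329 by limma; 0.0145 with the block). The manufacturer marks this probe set as having probes that can bind other transcripts. Another Lyz1 probe set without that mark, described below, read 18 to 23 on all arrays, a log2 change of 0.21. The calls of Chil3 and Lyz1 held without spinal cord array 1 (adjusted p = 0.0125 and 0.0242). Without any one of the other 5 arrays they were lost, at 0.0781 to 0.154 for Chil3 and 0.0703 to 0.149 for Lyz1. Both calls were also lost with values raised to the 20th percentile (adjusted p = 0.14 and 0.106).

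Lyz2, the lysozyme gene of macrophages and neutrophils, read 245, 1771 and 563 in spinal cord against 78, 81 and 78 in lymph node. The lymph node arrays agreed closely (log2 SD 0.03, n = 3) and the spinal cord arrays did not (log2 SD 1.43, n = 3). This gave a log2 change of 2.98 ± 0.68 SE, 7.91-fold, and it was called by limma with the block only (adjusted p = 0.0983; 0.0213 with the block).

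The promoter letters of the genes with the largest changes are shown as a description. Why these genes were high and low on the same spinal cord arrays was not tested. Of the 5 largest log2 changes, 4 genes had an entry in the RefSeq promoter table (build GRCm38.p6): Chil3 (chr3:106167565-106167814), Lyz1 (chr10:117292869-117293118), C1qb (chr4:136886201-136886450) and Lyz2 (chr10:117282273-117282522), all on the minus strand. The 250 bases before each gene start are printed 5′ to 3′ on the strand of the gene. Capitals mark AGGAAGT, a core of sites bound by PU.1 and related ETS factors, here read on the opposite strand as ACTTCCT.
Chil3: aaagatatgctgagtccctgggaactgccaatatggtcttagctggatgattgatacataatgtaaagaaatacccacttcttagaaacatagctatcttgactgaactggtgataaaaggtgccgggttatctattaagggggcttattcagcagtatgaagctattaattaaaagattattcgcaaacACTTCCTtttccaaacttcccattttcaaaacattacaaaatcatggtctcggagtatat
Lyz1: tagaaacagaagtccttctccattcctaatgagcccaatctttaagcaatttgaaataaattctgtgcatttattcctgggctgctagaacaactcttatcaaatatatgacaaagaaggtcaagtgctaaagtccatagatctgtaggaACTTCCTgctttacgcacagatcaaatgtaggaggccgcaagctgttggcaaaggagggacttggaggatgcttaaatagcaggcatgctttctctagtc
C1qb: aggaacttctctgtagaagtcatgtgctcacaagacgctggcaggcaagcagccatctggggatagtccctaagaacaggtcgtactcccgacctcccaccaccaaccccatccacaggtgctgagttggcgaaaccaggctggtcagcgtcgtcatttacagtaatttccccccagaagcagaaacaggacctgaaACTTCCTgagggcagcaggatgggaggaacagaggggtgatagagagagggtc
Lyz2: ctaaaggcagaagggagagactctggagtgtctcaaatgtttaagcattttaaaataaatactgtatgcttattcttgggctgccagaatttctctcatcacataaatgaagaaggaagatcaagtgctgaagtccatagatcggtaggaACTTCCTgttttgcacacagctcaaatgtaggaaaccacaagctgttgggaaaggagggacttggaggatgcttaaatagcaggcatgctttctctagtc

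Each of the 4 windows held AGGAAGT once, on the strand opposite to the gene. In Lyz1 and Lyz2 the match began at the same place, 100 bases before the gene start, and the windows were identical at 152 of 250 positions without gaps (60.8%). From the match to the gene start the letters differed at few positions, and most differences lay upstream of it. A comparison without gaps counts letters shifted by an insertion or deletion as different. The motif, searched on both strands and chosen after these sequences were seen, was in 9 of the 37 promoter windows of 32 listed genes (24.3%) and in 7.69% of all 32851 windows. The 9 include the 4 printed windows, so the difference between these shares is partly fixed by the choice of motif and tests nothing. The longer GAGGAAGT, which contains it, was in 2 of the 37 (5.41%) against 2.44% of all, and the C/EBP palindrome TTGCGCAA was in 0 of the 37 against 0.164% of all. A match is a description of the letters and not evidence of binding.

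Several receptors and effector genes of inflammatory macrophages read higher on spinal cord arrays 2 and 3 than on array 1. Clec7a, which encodes the fungal glucan receptor Dectin-1, read 67, 735 and 474 in spinal cord arrays 1, 2 and 3 against 38, 40 and 39 in lymph node. Its groups did not overlap, and array 1 lay nearer to the lymph node values than to the other spinal cord arrays. The log2 change was 2.87 ± 0.86 SE (adjusted p = 0.195 by limma; 0.0447 with the block). Mpeg1, a pore-forming gene of macrophages, read 128, 1721 and 1056 in spinal cord against 70, 77 and 115 in lymph node. Array 1 was barely above lymph node array 3. Its log2 change was 2.85 ± 0.95 SE (adjusted p = 0.239 by limma; 0.0475 with the block). Arg1, the arginase of alternatively activated macrophages, had another profile, at 93, 829 and 129 in spinal cord against 22, 27 and 21 in lymph node. Here arrays 1 and 3 were close to each other and array 2 stood apart. The log2 change of Arg1 was 3.21 ± 0.80 SE, at least 8.60-fold against the 20th percentile (adjusted p = 0.127 by limma; 0.0214 with the block).

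The signalling adaptor Tyrobp (DAP12) and the Fc receptor gene Fcgr3 followed the same array order in part. Tyrobp read 101, 269 and 260 in spinal cord against 54, 51 and 53 in lymph node. Every spinal cord array was above the lymph node, and arrays 2 and 3 were alike. The fitted log2 change was 1.87 ± 0.39 SE, 3.64-fold (adjusted p = 0.0782 by limma; 0.0206 with the block). Fcgr3, the low-affinity IgG receptor of myeloid and NK cells, read 79, 313 and 185 in spinal cord against 56, 59 and 54 in lymph node. The tissues did not overlap. The log2 change of Fcgr3 was 1.56 ± 0.48 SE (adjusted p = 0.203 by limma; 0.0482 with the block). Fcer1g, the common gamma chain that Fc receptors signal through, had a log2 change of 0.65 ± 0.25 SE and Fcgr1, the high-affinity receptor, one of 0.41 ± 0.16 SE, and limma called neither in either fit.

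The lipopolysaccharide receptor gene Cd14 and the cytokine gene Il1b had changes of 1.74 ± 0.52 and 1.33 ± 0.43 (log2 ± SE) without a call in either fit (adjusted p = 0.196 and 0.228 by limma; 0.05001 and 0.0684 with the block). Without spinal cord array 1 both were called (adjusted p = 0.0224 and 0.0275). The remaining monocyte and macrophage genes differed little. The scavenger receptor gene Msr1, the lysosomal gene Cd68, Ms4a7, the mannose receptor gene Mrc1, the nitric oxide synthase gene Nos2 and the integrin gene Itgam had log2 changes from 0.16 to 0.52, and limma called none of the 6 in either fit. Itgam, which encodes CD11b of most myeloid cells, read 22 to 27 on all 6 arrays, near the low end of the array, where a probe set can say little about the transcript. In the class as a whole, 3 of 20 genes were called higher with tissue alone and 9 with the block, and 0 were lower in either. Over all genes 1.13% were called higher and 1.41% lower with tissue alone, and 3.67% and 7.45% with the block.

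Cd86 differed from these genes by its even level across the spinal cord arrays. Cd86, which encodes a costimulatory ligand of antigen-presenting cells and is also found on some activated T cells, read 297, 332 and 330 in spinal cord against 130, 105 and 98 in lymph node. The groups did not overlap, and the spinal cord arrays spanned 1.12-fold. The log2 change of Cd86 was 1.53 ± 0.14 SE (8.32 ± 0.09 against 6.78 ± 0.21, log2 mean ± SD, n = 3 each), a rise of 2.90-fold (adjusted p = 0.00818 by limma; 0.00442 with the block). It was no longer called when array 2 of the spinal cord (adjusted p = 0.0543) or of the lymph node (0.0501) was left out, and held without each of the other 4 arrays, down to an adjusted p of 0.0179.

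Ctss, the gene of the lysosomal protease cathepsin S that trims the invariant chain of MHC class II, went the other way. It read 10447, 13155 and 9965 in spinal cord against 13529, 14454 and 13913 in lymph node. Each spinal cord array was below each lymph node array, with array 2 again the highest of the spinal cord arrays. On the log2 scale the change was -0.33 ± 0.14 SE and was not called (adjusted p = 0.369 by limma; 0.158 with the block).

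Among the genes of microglia and complement, Csf1r and the C1q chains were well above the lymph node arrays and the microglial markers P2ry12 and Tmem119 only slightly. Csf1r, the receptor for colony-stimulating factor 1, read 237, 1486 and 754 in spinal cord against 99, 57 and 98 in lymph node. The groups did not overlap, and array 2 was the highest. This gave a log2 change of 2.97 ± 0.67 SE, 7.83-fold (adjusted p = 0.0961 by limma; 0.0361 with the block).

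The 3 chains of C1q, the first component of the classical complement pathway, are encoded side by side on chromosome 4 and followed one pattern. C1qa read 84, 177 and 286 in spinal cord against 47, 41 and 47 in lymph node. C1qb read 42, 176 and 150 in spinal cord against 13, 14 and 12 in lymph node. C1qc read 53, 156 and 167 in spinal cord against 36, 29 and 36 in lymph node. In each, array 1 was the lowest spinal cord array and still above every lymph node array, and unlike Chil3 and Lyz2 the chains C1qa and C1qc were highest in array 3. Their log2 changes were 1.85 ± 0.43, 3.00 ± 0.54 and 1.73 ± 0.45 (± SE), with adjusted p of 0.106, 0.0519 and 0.139 by limma and 0.026, 0.0119 and 0.0408 with the block. For C1qb, whose lymph node mean lay below the 20th percentile, the fold was at least 4.14.

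P2ry12 and Tmem119, which separate microglia from other macrophages, gave small differences. P2ry12, a purine receptor gene, read 28, 40 and 35 in spinal cord against 20, 24 and 26 in lymph node. These values are close to the low end of the array, although the tissues did not overlap. Its log2 change was 0.55 ± 0.18 SE (adjusted p = 0.228 by limma; 0.0427 with the block). Tmem119 read 71, 107 and 104 in spinal cord against 59, 49 and 54 in lymph node. The tissues did not overlap here either, and the log2 change was 0.78 ± 0.19 SE (adjusted p = 0.122 by limma; 0.0577 with the block).

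The lipid carrier gene Apoe overlapped between tissues, at 50, 318 and 308 in spinal cord against 57, 29 and 174 in lymph node. It was the microglia and complement gene with the widest spread in lymph node (log2 SD 1.31, n = 3), and its log2 change of 1.36 ± 0.94 SE was not called (adjusted p = 0.616 by limma; 0.266 with the block). Aif1, which encodes the microglial protein Iba1, and the lipid receptor gene Trem2 had log2 changes of 0.57 ± 0.22 and 0.32 ± 0.14 (± SE) and were not called in either fit. With tissue alone limma called 0 of the 9 genes of the class, with 7 higher and 0 lower at an unadjusted p below 0.05, and with the block it called 5 higher. Over all genes 1.13% were called higher with tissue alone and 3.67% with the block. At the unadjusted p, 5.39% of all genes were higher and 8.89% lower. With a share as low as 1.13%, 0 of 9 genes does not set the class apart. The class median of 1.36 became 2.25 and 0.91 when spinal cord arrays 1 and 2 were left out in turn, and 0.77 when lymph node array 2 was.

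Neutrophil genes were highest on spinal cord array 2 and near the lymph node level on array 1. S100a8, which encodes a subunit of the calcium-binding protein calprotectin, read 53, 752 and 122 in spinal cord arrays 1, 2 and 3 against 59, 30 and 36 in lymph node. The groups overlapped, since array 1 lay below lymph node array 1, and array 2 was 6.16-fold above array 3. The fitted log2 change was 2.08 ± 0.95 SE (adjusted p = 0.403 by limma; 0.193 with the block). Its partner subunit gene S100a9 read 32, 210 and 89 in spinal cord against 39, 29 and 31 in lymph node, and the tissues overlapped in the same way. The log2 change of S100a9 was 1.36 ± 0.65 SE (adjusted p = 0.429 by limma; 0.195 with the block).

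Genes of neutrophil granules gave the same picture. Ngp, which encodes neutrophilic granule protein, read 75, 583 and 164 in spinal cord against 82, 52 and 65 in lymph node. Array 2 stood apart and array 1 fell within the lymph node range, with a log2 change of 1.56 ± 0.72 SE (adjusted p = 0.409 by limma; 0.196 with the block). The lactoferrin gene Ltf read 283 in spinal cord array 2 and 48 and 71 in arrays 1 and 3, against 37 to 50 in lymph node. The cathelicidin gene Camp and the receptor gene Csf3r, for granulocyte colony-stimulating factor, had log2 changes of 0.85 ± 0.33 and 0.44 ± 0.12 (± SE). Csf3r had another profile, at 57, 62 and 50 in spinal cord against 43, 41 and 40 in lymph node. Its lowest spinal cord array was array 3, and the tissues did not overlap. With limma 0 of the 6 genes were called with tissue alone or with the block, and 2 were higher and 0 lower at an unadjusted p below 0.05. Over all genes 1.13% were called higher with tissue alone and 3.67% with the block, so 0 of 6 does not set the class apart. At the unadjusted p, 5.39% of all genes were higher and 8.89% lower. The median log2 change of the class was 1.31 with all arrays, 0.61 when spinal cord array 2 was left out and 1.92 when array 1 was.

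In the dendritic cell class Itgax rose and the other 4 genes stayed within 0.21 of no change on the log2 scale. Itgax, which encodes the integrin chain CD11c of dendritic cells and is also found on some activated T cells, read 229, 315 and 246 in spinal cord against 97, 79 and 97 in lymph node. The groups did not overlap, and the spinal cord arrays spanned 1.38-fold. On the log2 scale the change was 1.53 ± 0.17 SE, 2.88-fold (adjusted p = 0.0128 by limma; 0.00742 with the block), a call not kept when array 2 of the spinal cord (adjusted p = 0.0533) or of the lymph node (0.0625) was left out.

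The genes that set dendritic cells apart from other myeloid cells gave smaller changes than Itgax, most of them from dim probe sets. Zbtb46, a transcription factor of classical dendritic cells, read 70, 78 and 71 in spinal cord against 67, 60 and 66 in lymph node. Siglech, a lectin of plasmacytoid dendritic cells, read 71, 71 and 65 in spinal cord against 62, 57 and 60 in lymph node. Xcr1, the chemokine receptor of cross-presenting dendritic cells, read 19 to 24 on all 6 arrays. The log2 changes were 0.18 ± 0.11, 0.21 ± 0.11 and 0.18 ± 0.12 (± SE), and 0.17 ± 0.12 for Flt3, the receptor that drives dendritic cell development. Limma called none of these 4 in either fit.

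The spinal cord arrays differed in how far myeloid genes stood above the lymph node mean. The median ratio to that mean over the 40 genes was 1.27 in array 1, 3.25 in array 2 and 2.22 in array 3, with values and means below the 20th percentile raised to it, a step added after seeing the data. At least 2-fold above it were 7 genes in array 1, 23 in array 2 and 20 in array 3, against 3.62%, 2.86% and 2.97% of all genes. Without the raised values array 1 had 8 such genes, the other being C1qb. Array 2 was the highest spinal cord array for 30 of the 40 genes, against 26% of all genes, and array 1 the lowest for 32, against 25.9%. The log2 SD among spinal cord arrays exceeded that among lymph node arrays in 33 of the 40, against 46.3% of all genes. Its median was 0.53 in spinal cord and 0.15 in lymph node for the 40 genes, and 0.20 and 0.21 over all genes.

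The classes had different balances of arrays 2 and 3. The median ratio of array 2 to array 3 was 1.03 for microglia and complement, 1.35 for monocytes and macrophages, 2.90 for neutrophils and 1.09 for dendritic cells, with 1.01 over all genes. All 6 measured neutrophil genes were highest in array 2, and none was 2-fold above the lymph node mean in array 1 (0.978 to 1.38 times it). In the same array Lyz1 was 16.2 times, Lyz2 3.10 times and Csf1r 2.89 times its lymph node mean, while Chil3 was at least 10.7 times and Arg1 at least 3.72 times higher. Spinal cord array 1, the lowest of the 3 for 32 of the 40 genes, had the highest poly-A control signal of the 6 arrays (29053), and array 3 the lowest (1729); of the 64 further myeloid genes described last, 36 were lowest in array 1. The part of this signal in the differences between arrays was not tested.

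**Figure D3:**
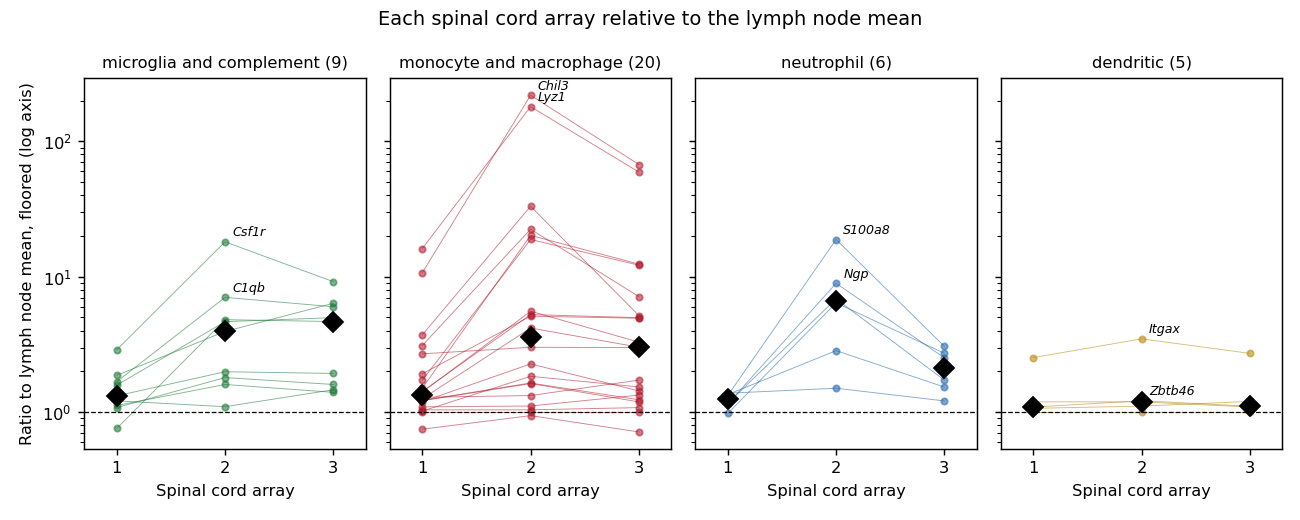
Ratio of each spinal cord array to the lymph node mean of the same gene, both raised to an intensity of 25 where lower, on a log axis, in 4 panels by class. Thin lines join the values of one gene, the arrays have no order, black diamonds are class medians and the dashed line marks a ratio of 1. The neutrophil medians are 1.25, 6.64 and 2.12 in arrays 1, 2 and 3, and the microglia and complement medians 1.32, 3.94 and 4.67.

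The array numbers are shared between tissues, and over all genes the deviations of same-numbered arrays from their tissue means correlated at 0.576, 0.509 and 0.777. Over the 40 myeloid genes these correlations were -0.123, -0.165 and 0.452. They are across genes, which are not independent replicates, and centring on tissue means builds in part of their pattern.

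Probe sets of one gene mostly agreed in direction and often not in size. The 40 genes had 56 probe sets, 53 of them with a positive change. Besides the one used for Lyz1, another of its probe sets read 133, 1495 and 525 in spinal cord against 23, 16 and 10 in lymph node. The last read 23, 23 and 19 in spinal cord against 18, 18 and 20 in lymph node, with no more than a log2 change of 0.21. These first ones carry the suffix _x_at, by which the manufacturer marks probe sets with probes that can bind other transcripts, and the last carries the plain suffix _at. Whether the _x_at probe sets detect Lyz2 was not tested.

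Csf1r was 7.83-fold, 2.77-fold and 1.68-fold higher by its 3 probe sets. C1qb, with all 3 lymph node means below the 20th percentile, was at least 4.14-fold, 2.72-fold and 1.40-fold higher. Cd86 was 2.90-fold and 3.83-fold higher. For Fcgr1 and Msr1 a dimmer probe set gave a larger change than the one with the highest mean. The dimmer Fcgr1 probe set read 29, 93 and 69 in spinal cord against 20, 23 and 21 in lymph node, at least 2.28-fold higher, against 1.33-fold for the brighter. A dimmer Msr1 probe set read 50, 164 and 77 in spinal cord against 44, 46 and 43 in lymph node, 1.94-fold higher, against 1.43-fold for the brightest. Zbtb46 and Ms4a7 each had a probe set of opposite sign (log2 change -0.39 and -0.06).

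**Figure D4:**
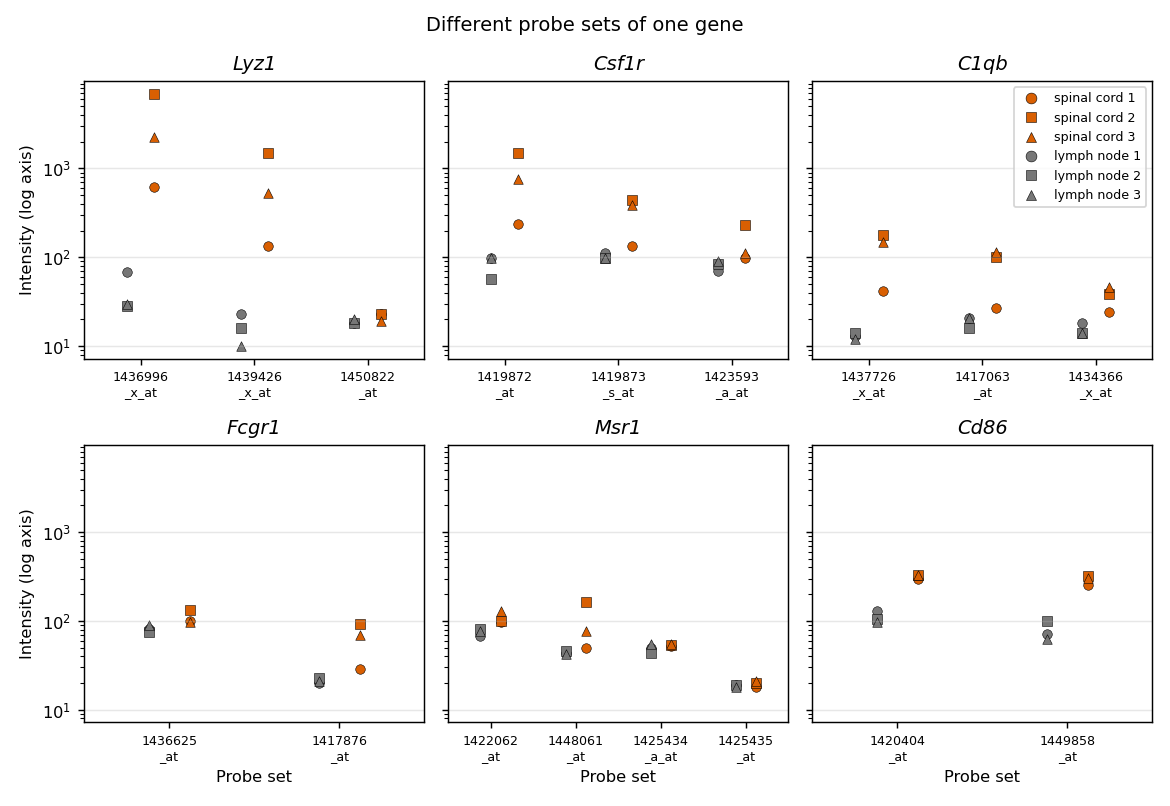
Intensity on each array, on a log axis, for each probe set of 6 genes, with spinal cord in orange, lymph node in grey and symbols for array numbers. For Lyz1 the tissues lie far apart in the first pair of probe sets, marked _x_at, and together in the last (18 to 23 on all arrays), while both Cd86 probe sets part the tissues by a similar distance.

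A further list of 72 myeloid genes held 64 that were measured. Of these 58 had a positive change, with a median log2 change of 0.57, and 7 rose and 1 fell by limma with tissue alone (13 and 1 with the block). Over all genes 50.7% were positive, 1.13% were called higher and 1.41% lower, and 3.67% and 7.45% with the block. Without spinal cord arrays 1, 2 and 3 in turn 5, 2 and 3 were called higher, and without lymph node arrays 1, 2 and 3 these were 3, 1 and 2, in fits that called 0.269% to 0.748% of all genes higher. The smallest p-values were those of Cebpb, Gpr34, Cxcl2 and Fcgr2b. Cebpb, a transcription factor of myeloid and other activated cells, read 606, 525 and 686 in spinal cord against 193, 153 and 195 in lymph node. It rose 3.36-fold (adjusted p = 0.00798 by limma) and was called in all 6 fits that left out an array, and unlike Chil3 it was lowest in array 2. The microglial receptor gene Gpr34 read 237, 333 and 298 in spinal cord against 47, 83 and 86 in lymph node and rose 4.12-fold (adjusted p = 0.0221 by limma). The neutrophil chemokine gene Cxcl2 read 146, 908 and 304 in spinal cord against 18 to 21 in lymph node, the array order of Chil3 (adjusted p = 0.0329 by limma). Fcgr2b, the inhibitory Fc receptor gene, read 840, 826 and 926 in spinal cord against 550, 446 and 452 in lymph node and rose 1.80-fold (adjusted p = 0.0348 by limma). Ccr1, Lgals3 and Mmp9, a chemokine receptor, a galectin and a matrix protease gene, also rose (adjusted p = 0.0387, 0.0422 and 0.0439 by limma) and, unlike most of the 40 genes, were highest in spinal cord array 1. Ccr1 read 606, 414 and 205 on the spinal cord arrays, Lgals3 read 5939, 3340 and 3958, and Mmp9 read 420, 259 and 292, and none of their values overlapped those of lymph node. Of the 6 fits that left out an array, Ccr1 was called in 1 and Lgals3 and Mmp9 in 0 (highest adjusted p 0.161, 0.171 and 0.17). Over the same fits, Gpr34 and Cxcl2 were called in 2 and Fcgr2b in 1 (highest adjusted p 0.103, 0.14 and 0.137).

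Transcription factor genes of the lineage did not share a direction. Cebpb rose, as given above. Irf8 read 1614, 1067 and 375 in spinal cord against 382, 509 and 115 in lymph node, and the tissues overlapped. Its log2 change was 1.62 ± 0.74 SE (adjusted p = 0.406 by limma, and 0.00995 with the block). The factor genes Batf3 and Sall1 had log2 changes of 0.07 and 0.08. Cebpa, a factor of early myeloid commitment, was the gene that fell, reading 61, 64 and 62 in spinal cord against 140, 100 and 156 in lymph node (log2 change -1.06 ± 0.18 SE, adjusted p = 0.0478 by limma), and it was called in 1 of the 6 fits that left out an array (highest adjusted p 0.161). Spi1, which encodes PU.1, read 90, 84 and 71 in spinal cord against 73, 77 and 100 in lymph node, and the tissues overlapped (log2 change -0.02 ± 0.17 SE, adjusted p = 0.973 by limma). Ccr1, Lgals3, Mmp9, Irf8, Batf3, Sall1, Cebpa and Spi1 were named after their values were seen.

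Marker lists of other cells were measured in the same way. The median log2 change was 0.10 for 7 B cell genes, 0.04 for 5 CD8 and NK cell genes, 0.26 for 5 erythroid genes, -0.02 for 7 endothelial genes, 0.07 for 6 oligodendrocyte genes, 0.13 for 6 astrocyte genes and 0.06 for 7 neuron genes. With tissue alone limma called 0 genes of these lists, against 2.54% of all genes in either direction. At that share, 0 calls among so few genes cannot show that the lists did not differ. Many were also dim. A mean intensity above the 40th percentile was reached by 0 B cell genes and 1 each of the erythroid, astrocyte and neuron genes. It was reached by 3 each of the CD8 and NK cell, endothelial and oligodendrocyte genes. At an unadjusted p below 0.05, 1 erythroid gene was higher and 1 B cell and 1 oligodendrocyte gene were lower, and with the block 1 gene each of the CD8 and NK cell, B cell and oligodendrocyte lists was lower. Over all genes 5.39% were higher and 8.89% lower at the unadjusted p, and 3.67% and 7.45% with the block.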

How the data were processed

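The deposited table held intensity values of 45101 probe sets on a linear scale, from 9 to 39505, rounded to whole numbers. Per the submitters' processing notes the authors used RMA (background correction, normalization between arrays, probe set summary), with the version not given in the sources used here. Per the labels' protocols, biotin-labelled cRNA was made in 2 cycles of amplification from 1 ng of total RNA, which can add variation between arrays. Array medians were 68 to 71, and no detection calls were used here. From these values log2 was taken. Of the probe sets, 34945 named 1 gene in the platform annotation, a further 13 that did so and 51 others were array controls, 932 named several genes and 9160 none.

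Genes were tested with limma 3.58.1 (lmFit, eBayes) in R 4.3.3, two-sided, with Benjamini-Hochberg adjustment over 18193 genes, and the fit was checked on simulated data. Tables and figures used Python 3.11.15, pandas 2.3.3, numpy 2.4.6 and matplotlib 3.10.9. The genes and lists were chosen with earlier results of these data known. Values on each array are given for the 5 markers, Lyz1, each gene called with or without the block, the 3 largest changes of each class and the 4 smallest p-values of the further list. Ctss, Apoe, Itgam, Xcr1, Ltf, Csf3r and the other probe sets of Fcgr1 and Msr1 were added after seeing their values.

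Array numbers recur in both tissues, and the labels do not state their meaning. Over all genes, same-numbered arrays deviated together (0.576, 0.509 and 0.777, each above 0.1), so the numbers were taken as pairs from the data. The fit with this block is given beside each call it changes. Its p-values depend on a pairing chosen from these same arrays. Over the 40 myeloid genes the correlations were -0.123, -0.165 and 0.452, so the pairing is not shown for these genes. Other alternatives were each array left out, quantile normalization, median centring, a filter at the 40th percentile, a floor at the 20th, other choices of probe set, another variance model, array weights and a looser threshold.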

Additional observations from a re-analysis of the deposited data

How the results depend on the processing

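With the replicate block, 15 of the 40 myeloid genes and 13 of the 64 further myeloid genes were called higher, against 4 and 7 with tissue alone. Among the 40, 9 were called with an intensity trend and robust variance (1.37% of all genes higher), 8 at a threshold of 0.1 (1.77%) and 2 with the floor at the 20th percentile (0.423%), where calls over all genes also fell, from 206 to 77 higher. With that floor 1 further myeloid gene was higher and 0 lower, and with the probe set of highest variance 0 were lower. Leaving out single arrays gave 0 to 14 of the 40 higher, 1 to 5 of the further genes higher and 0 to 1 lower, and class medians of 0.77 to 2.25 (microglia and complement), 1.03 to 1.71 (monocytes and macrophages) and 0.61 to 1.92 (neutrophils). Quantile normalization, median centring and the mean of all probe sets changed no call among the 40. The dendritic median log2 change was 0.85 with dim genes left out, 0.22 with array weights, and 0.18 to 0.24 without single arrays, and the cause was not tested except that the dim filter left 2 of the 5 genes. Of the genes each alternative tested, Zbtb46 changed sign, at -0.39 with the probe set of highest variance, and Mrc1 and Xcr1 came to a log2 change of 0 with the floor. The filter on dim genes tested 23 of the 40. With no detection calls, differences among the dimmest genes cannot be set against a background level.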
